A study of Mus musculus with 6 samples.

Results

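The SLAM family is a group of immunoglobulin-type receptors of blood cells, and its transcripts were examined in mouse haematopoietic stem cells (HSCs) divided by surface CD38. The set consisted of 10 genes, taken by symbol from the 49585 Ensembl gene rows of the count tables: 9 receptor genes (Slamf1, Cd48, Cd244a, Ly9, Cd84, Slamf6, Slamf7, Slamf8 and Slamf9) and the adaptor gene Sh2d1a. All 10 had reads, and 9 were among the 14785 genes tested, the exception being Sh2d1a. The 9 receptor genes lie on chromosome 1 and Sh2d1a on chromosome X.

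Bulk RNA sequencing was done on bone marrow HSCs of untreated C57BL/6 mice aged 8 to 16 weeks. The cells were sorted as negative for lineage markers, CD48 and CD34, and as positive for Kit, Sca-1, CD150 and CD201. They were then divided into a CD38-positive (CD38hi) and a CD38-negative (CD38lo) population, with 3 libraries of each. Each library came from the pooled cells of 10 mice, and the series' design text pairs the CD38-positive and CD38-negative libraries into 3 pairs. All groups therefore share the selection on CD150, the protein of Slamf1, and against CD48, the protein of Cd48. Whether the matched libraries share mice is not stated in the labels, so p-values measure the spread between these 6 pools only.

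SLAM receptors act mostly by binding themselves on a neighbouring cell; CD48 and CD244 instead bind each other. In several of the receptors the tail carries tyrosine motifs that recruit the small adaptor SAP, the product of Sh2d1a, or the related adaptor EAT-2. Through these adaptors Src-type kinases are recruited, while phosphatases such as SHP-1 and SHIP-1 can bind the same motifs. In bone marrow the family is best known as a sorting code, in which CD150 without CD48 marks HSCs and CD48 appears on most progenitors that have left that state.

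Libraries held between 16771180 and 18558610 counts, so 3 reads corresponded to between 0.166 and 0.183 counts per 1000000 counts of the library (CPM). The 14 HSC marker genes checked, among them Kit, Procr, Mecom and Hlf, had reads in all 6 libraries, with summed levels of 862 to 1796 CPM in CD38-positive and 1136 to 2426 CPM in CD38-negative libraries. Genes of mature cells were also present in every library. The most abundant gene of all 6 was the neutrophil gene S100a8, and 14 granulocyte genes together were at 79993 to 176336 CPM in CD38-positive and 86270 to 138979 CPM in CD38-negative libraries. Because these are bulk samples, fewer cells of a type and less RNA per cell cannot be told apart.

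Most of the family's reads came from Cd48 and Cd84, which together made up between 64.0% and 72.6% of the summed CPM of the 10 genes in each library. The summed level of the family averaged 270 ± 59.1 CPM in the CD38-positive and 250 ± 13.0 CPM in the CD38-negative group (SD, n = 3 each). Levels of different genes were compared per kilobase of merged exon. On that scale Cd48 had a mean level of 68.6 ± 27.1 CPM per kb (SD, n = 6 libraries) and Cd84 one of 15.8 ± 2.10 CPM per kb. Ly9 and Slamf1 followed at 5.11 ± 1.31 and 4.72 ± 1.75 CPM per kb. Slamf8, Slamf7 and Cd244a were lower, at 2.02 ± 0.793, 1.70 ± 0.572 and 1.58 ± 0.459 CPM per kb. Slamf6 and Slamf9 had 0.961 ± 0.349 and 0.765 ± 0.292 CPM per kb, and Sh2d1a had 0.0630 ± 0.0475 CPM per kb.

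Several neighbours in this order did not differ beyond their spread over libraries. Ly9 was above Slamf1 in 4 of 6 libraries, Slamf8 above Slamf7 in 3 of 6, Slamf7 above Cd244a in 4 of 6 and Cd244a above Slamf6 in 5 of 6, and in each of these cases the ranges overlapped. The steps from Cd48 to Cd84, from Cd84 to Ly9, from Slamf1 to Slamf8 and from Slamf9 to Sh2d1a were kept in 6 of 6 libraries without overlap of the ranges. Slamf6 was above Slamf9 in 6 of 6 libraries although their ranges overlapped. With the longest transcript as the length, only Slamf7 and Cd244a exchanged places.

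**Figure D1:**
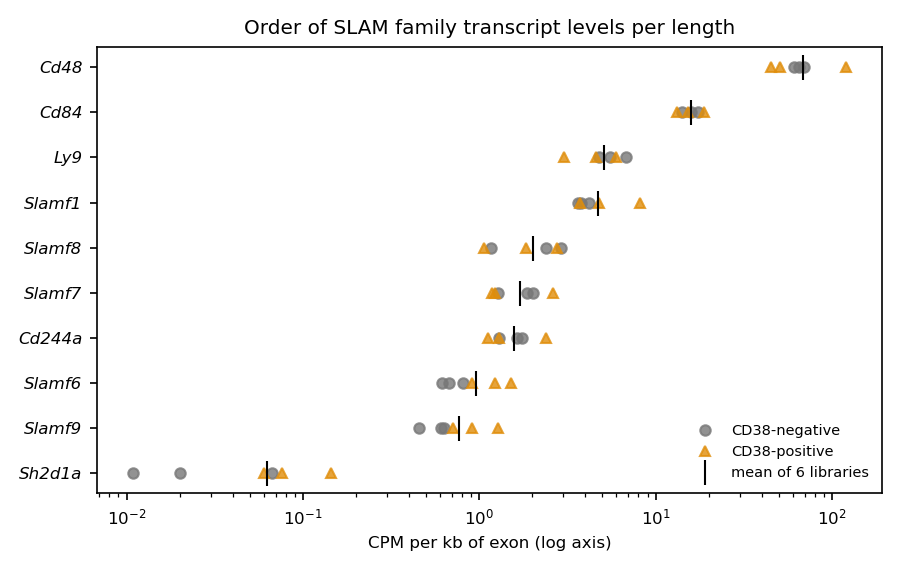
Level of each SLAM family gene in CPM per kb of merged exon (horizontal log axis), ordered by the mean of 6 libraries (black bars); circles are CD38-negative and triangles CD38-positive libraries. Cd48 and Cd84 stand clear of the other genes, and Sh2d1a is lowest at a mean of 0.0630 CPM per kb.

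Slamf1 encodes CD150, the receptor whose presence was required in the sort. It (ENSMUSG00000015316, GRCm38 chromosome 1, 171767127 to 171801184, plus strand, protein coding) had 383, 523 and 913 reads in CD38-positive libraries 1, 2 and 3, while the matched CD38-negative libraries had 373, 418 and 424. These correspond to 23.0, 29.6 and 50.4 CPM against 22.2, 23.2 and 25.9 CPM. The CD38-negative libraries lay close together, CD38-positive library 3 was well above the other libraries, and the groups overlapped because CD38-positive library 1 was at the level of the CD38-negative libraries. The mean CPM was 34.3 ± 14.3 for the CD38-positive and 23.8 ± 1.92 for the CD38-negative group (SD, n = 3 each). The log2 fold change, CD38-positive relative to CD38-negative, was 0.45 (SE 0.23, 95% interval -0.05 to 0.95) and did not pass the threshold of 0.05 (edgeR adjusted p = 0.926). The pair differences were 0.05, 0.35 and 0.96 on the log2 scale. Without pair 3 the log2 fold change was 0.20 and without pair 1 it was 0.65. The summed HSC markers did not follow the same order, with log2 differences of -0.40, -1.18 and 0.17 in pairs 1, 2 and 3.

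Of 8736 genes with a mean of at least 10 CPM, those whose levels followed Slamf1 most closely over the 6 libraries were Clca3a1, Rps6-ps4 and Bcl2, with Pearson correlations of log2(CPM + 0.1) of 0.988, 0.985 and 0.980. These values describe the 6 libraries only, and 48 genes had a correlation above 0.9. Clca3a1, a chloride channel accessory gene, was at 20.8, 27.2 and 49.0 CPM in the CD38-positive libraries and at 17.4, 19.8 and 20.7 CPM in the CD38-negative ones. Bcl2, which protects cells from apoptosis, was at 33.0, 38.9 and 46.9 CPM against 34.7, 33.6 and 36.4 CPM. Rps6-ps4 is a ribosomal protein pseudogene, and its counts are uncertain because reads of the parent gene can be assigned to it.

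Cd48 encodes a membrane-anchored receptor whose protein was required to be absent from the cell surface in the sort. It (ENSMUSG00000015355, chromosome 1, 171682009 to 171705258, plus strand, protein coding) had 2394, 1063 and 970 reads in CD38-positive libraries 1, 2 and 3, against 1391, 1384 and 1189 in the CD38-negative ones. The corresponding levels were 144, 60.1 and 53.5 CPM against 82.8, 76.9 and 72.7 CPM. CD38-positive library 1 was the highest and the other CD38-positive libraries the lowest of the 6, so the CD38-negative libraries lay between them. The means were 85.7 ± 50.2 CPM (SD, n = 3) and 77.5 ± 5.09 CPM (SD, n = 3), and the log2 fold change of -0.0036 (SE 0.24) had a 95% interval of -0.52 to 0.51 (edgeR adjusted p = 0.998). Pair differences of 0.79, -0.35 and -0.44 had opposite signs, and without pair 1 the log2 fold change was -0.40. The annotation places Gm37010 inside the Cd48 locus, but the genes share 0 exonic bases and Gm37010 had 2 reads in all.

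Per kb of exon, Cd48 transcripts exceeded those of Slamf1 in each of the 6 libraries. The ratio of Cd48 to Slamf1 on that scale was 32.4, 10.5 and 5.50 in CD38-positive libraries 1, 2 and 3, and 19.3, 17.1 and 14.5 in the CD38-negative libraries. It spanned a wider range in the CD38-positive libraries, which included the highest and the lowest value, than in the CD38-negative ones (means 16.1 ± 14.3 and 17.0 ± 2.40, SD, n = 3 each). The CD38-positive library with the highest ratio also had the highest summed granulocyte level, 176336 CPM against 79993 to 138979 CPM in the others, and the highest summed level of 9 progenitor markers, 1391 CPM against 948 to 1042 CPM. The part of such cells in the Cd48 level was not tested.

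Slamf6 (ENSMUSG00000015314, chromosome 1, 171917515 to 171953170, plus strand, protein coding), a receptor that binds itself and is known from T, B and NK cells, had the smallest p-value of the family. In CD38-positive libraries 1, 2 and 3 it had 275, 235 and 179 reads, against 112, 158 and 120 in their partners, or 16.5, 13.3 and 9.88 CPM against 6.67, 8.78 and 7.34 CPM. All 3 CD38-positive libraries were above all 3 CD38-negative ones. The means were 13.2 ± 3.31 CPM and 7.60 ± 1.08 CPM (SD, n = 3 each). The log2 fold change was 0.78 (SE 0.28, 95% interval 0.18 to 1.37), with an unadjusted p of 0.0139 in the edgeR test and an adjusted p of 0.925, so Slamf6 did not pass the threshold. The pair differences were 1.29, 0.59 and 0.42. Without pair 1 the log2 fold change was 0.51 and without pair 3 it was 0.95. An antisense gene, Gm37065, overlaps Slamf6 without sharing exonic bases and had 164 reads in the 6 libraries.

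Slamf9, a receptor with a short tail known from macrophages and dendritic cells, was the other member whose groups did not overlap, with far fewer reads. It (ENSMUSG00000026548, chromosome 1, 172475358 to 172478575, plus strand) had 28, 21 and 17 reads in CD38-positive and 10, 15 and 13 reads in CD38-negative libraries, or 1.68, 1.19 and 0.938 CPM against 0.595, 0.834 and 0.795 CPM. The log2 fold change was 0.74 with a wide 95% interval of -0.40 to 1.88 (SE 0.53, edgeR adjusted p = 0.932). The pair differences were 1.33, 0.46 and 0.21, and without pair 1 the estimate was 0.38. Of 14 monocyte, macrophage and dendritic cell markers, 6 were also higher in the CD38-positive library of all 3 pairs (13.2% of all genes were); the sum of the 14 was 354 to 458 CPM in CD38-positive and 299 to 358 CPM in CD38-negative libraries, and Itgax was at 0 reads in CD38-negative library 3. The part of these cells in the Slamf6 and Slamf9 levels was not tested.

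Across the family, 0 of the 9 tested receptors passed an adjusted p of 0.05, in a comparison where 2 of 14785 genes did (0.0135%). At an unadjusted p under 0.05 there was 1 receptor, Slamf6, against 5.08% of all genes. The receptors with the CD38-positive library higher in 3 of 3 pairs were Slamf1, Slamf6 and Slamf9, where 13.2% of all genes had that pattern, and 0 were lower in 3 of 3 pairs (11.3% of all genes). In 2 of the 9, Slamf6 and Slamf9, all CD38-positive libraries exceeded all CD38-negative ones (3.33% of all genes), and 0 showed the opposite (3.19%). The median log2 fold change of the 9 was -0.01, beside 0.00 for all tested genes.

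**Figure D2:**
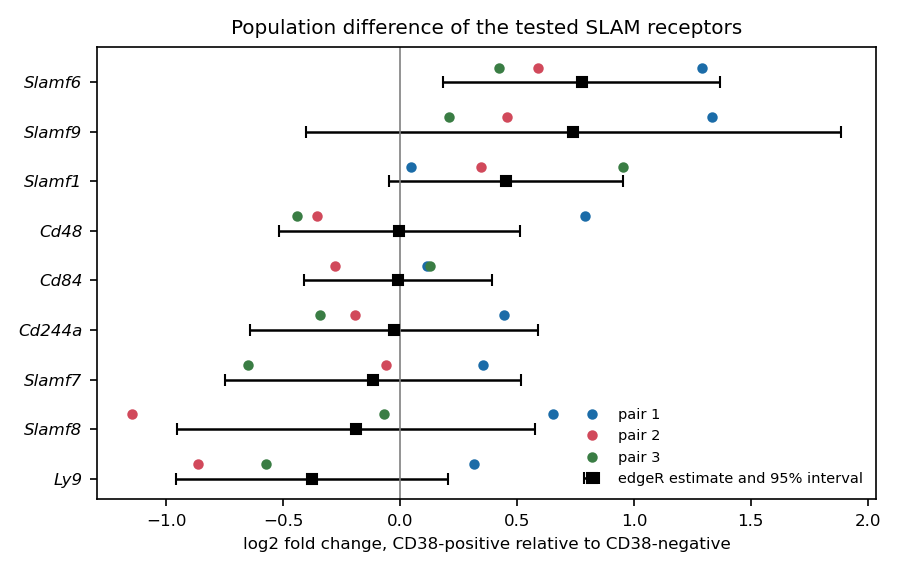
Log2 fold change of the 9 tested receptors, CD38-positive relative to CD38-negative (horizontal axis); squares and bars are edgeR estimates with 95% intervals, and coloured points are the differences of pairs 1, 2 and 3. Slamf6 has the highest estimate at 0.78 and Ly9 the lowest at -0.38, and all intervals except that of Slamf6 include 0.

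The sequences upstream of the receptors higher in 3 of 3 pairs (Slamf1, Slamf6 and Slamf9) and of Cd48, the other receptor of the sort, are shown to let these promoters be compared; each is the 250 bases before the RefSeq transcription start on GRCm38.p6. Capitals mark the letters GATAA (the core bound by GATA factors), TGTGGT (RUNX factors) and AGGAAG (ETS factors such as PU.1), searched on both strands, with no overlap between them in these windows.
Slamf1, GRCm38 chr1:171766882-171767131, plus strand: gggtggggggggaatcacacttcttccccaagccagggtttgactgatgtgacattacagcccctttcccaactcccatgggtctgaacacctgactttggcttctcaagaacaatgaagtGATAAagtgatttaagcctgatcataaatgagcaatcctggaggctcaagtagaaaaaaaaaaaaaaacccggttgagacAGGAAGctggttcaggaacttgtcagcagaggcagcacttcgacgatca
Slamf6, GRCm38 chr1:171917212-171917461, plus strand: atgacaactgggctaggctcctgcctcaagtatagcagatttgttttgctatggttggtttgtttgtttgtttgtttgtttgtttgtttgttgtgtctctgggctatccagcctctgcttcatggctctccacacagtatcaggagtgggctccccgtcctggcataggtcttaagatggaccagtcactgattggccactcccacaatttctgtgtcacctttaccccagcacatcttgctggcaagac
Slamf9, GRCm38 chr1:172475110-172475359, plus strand: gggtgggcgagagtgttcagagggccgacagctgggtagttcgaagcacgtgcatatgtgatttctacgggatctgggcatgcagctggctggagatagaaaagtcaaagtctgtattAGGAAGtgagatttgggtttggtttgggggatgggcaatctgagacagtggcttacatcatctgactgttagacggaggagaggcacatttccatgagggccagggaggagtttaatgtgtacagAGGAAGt
Cd48, GRCm38 chr1:171681742-171681991, plus strand: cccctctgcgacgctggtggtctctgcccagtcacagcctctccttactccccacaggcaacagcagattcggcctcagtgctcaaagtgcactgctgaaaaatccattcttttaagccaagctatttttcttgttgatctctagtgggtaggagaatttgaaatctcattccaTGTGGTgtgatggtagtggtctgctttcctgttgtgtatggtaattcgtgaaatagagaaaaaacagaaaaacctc

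The 4 windows did not share a motif set. Slamf1 had 1 GATAA and 1 AGGAAG, Slamf9 had 2 AGGAAG, Cd48 had 1 TGTGGT and Slamf6 had 0 of the 3. Among 32851 RefSeq promoter windows of the same length, 22.6% held GATAA, 14.0% held TGTGGT and 29.5% held AGGAAG on either strand. Windows were found for 8 of the 10 members, and their GC content ran from 38.0% in Slamf7 to 54.4% in Slamf8, beside a median of 52.4% for all windows. A match is a description of the letters only.

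Cd84 encodes a self-binding receptor of platelets, myeloid cells and lymphocytes, and was the steadiest member. It (ENSMUSG00000038147, chromosome 1, 171839697 to 171890718, plus strand) had 1602, 1457 and 2151 reads in CD38-positive libraries and 1487, 1796 and 1775 in CD38-negative ones, or 96.0, 82.4 and 119 CPM against 88.5, 99.8 and 109 CPM. The groups overlapped fully, and the highest library was 1.44 times the lowest. The means were 99.0 ± 18.3 and 99.0 ± 10.0 CPM (SD, n = 3 each), and the estimate of -0.01 on the log2 scale had an SE of 0.19 and a 95% interval of -0.41 to 0.39 (adjusted p = 0.995 in edgeR). The interval covers differences of up to 1.33 times lower and 1.31 times higher. The 12 megakaryocyte and platelet markers had sums of 569 to 816 CPM in CD38-positive and 521 to 909 CPM in CD38-negative libraries, while Gp6 had 0 reads in CD38-negative library 3.

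Ly9, also called CD229 and a self-binding receptor of lymphocytes, had the most negative estimate. It (ENSMUSG00000004707, chromosome 1, 171588624 to 171607410, minus strand) had 327, 177 and 274 reads in CD38-positive libraries and 264, 329 and 369 in CD38-negative ones, or 19.6, 10.0 and 15.1 CPM against 15.7, 18.3 and 22.6 CPM. The lowest values were those of CD38-positive libraries 2 and 3, but CD38-positive library 1 exceeded 2 of the CD38-negative libraries. The log2 fold change was -0.38 (SE 0.27, 95% interval -0.96 to 0.20, edgeR adjusted p = 0.932), with pair differences of 0.32, -0.86 and -0.57. Without pair 1 it was -0.72.

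Cd244a encodes 2B4, the receptor for CD48. It (ENSMUSG00000004709, chromosome 1, 171559193 to 171609746, plus strand) overlaps Ly9 on the opposite strand, with 0 shared exonic bases. Its 194, 97 and 114 reads in CD38-positive and 143, 113 and 131 reads in CD38-negative libraries gave 11.6, 5.49 and 6.29 CPM against 8.52, 6.28 and 8.01 CPM. CD38-positive library 1 was again the highest, as it was for its ligand Cd48 and also for Slamf6, Slamf7 and Slamf9. The log2 fold change of Cd244a was -0.03 (SE 0.29, 95% interval -0.64 to 0.59, edgeR adjusted p = 0.992). Slamf7, or CRACC, is known from NK and plasma cells and binds itself. It (ENSMUSG00000038179, chromosome 1, 171632403 to 171653035, minus strand) was at 11.9, 5.60 and 5.41 CPM against 9.29, 5.84 and 8.56 CPM, and its estimate was -0.11 on the log2 scale (SE 0.29, adjusted p = 0.971 in edgeR). Slamf7 shares 423 exonic bases with the antisense gene Gm37787, which had 84 reads against 797 for Slamf7, so its counts are less certain.

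Slamf8, a receptor with a short tail that is known to restrain the NADPH oxidase of macrophages, varied mostly between pairs. It (ENSMUSG00000053318, chromosome 1, 172581758 to 172590568, minus strand) was at 5.69, 3.28 and 8.50 CPM in CD38-positive and 3.57, 7.39 and 8.93 CPM in CD38-negative libraries, from 58 to 154 reads. Both libraries of pair 3 were high and the groups overlapped. The log2 fold change was -0.19 (SE 0.36, 95% interval -0.95 to 0.58, edgeR adjusted p = 0.966), and the pair differences of 0.66, -1.14 and -0.07 differed in sign.

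**Figure D3:**
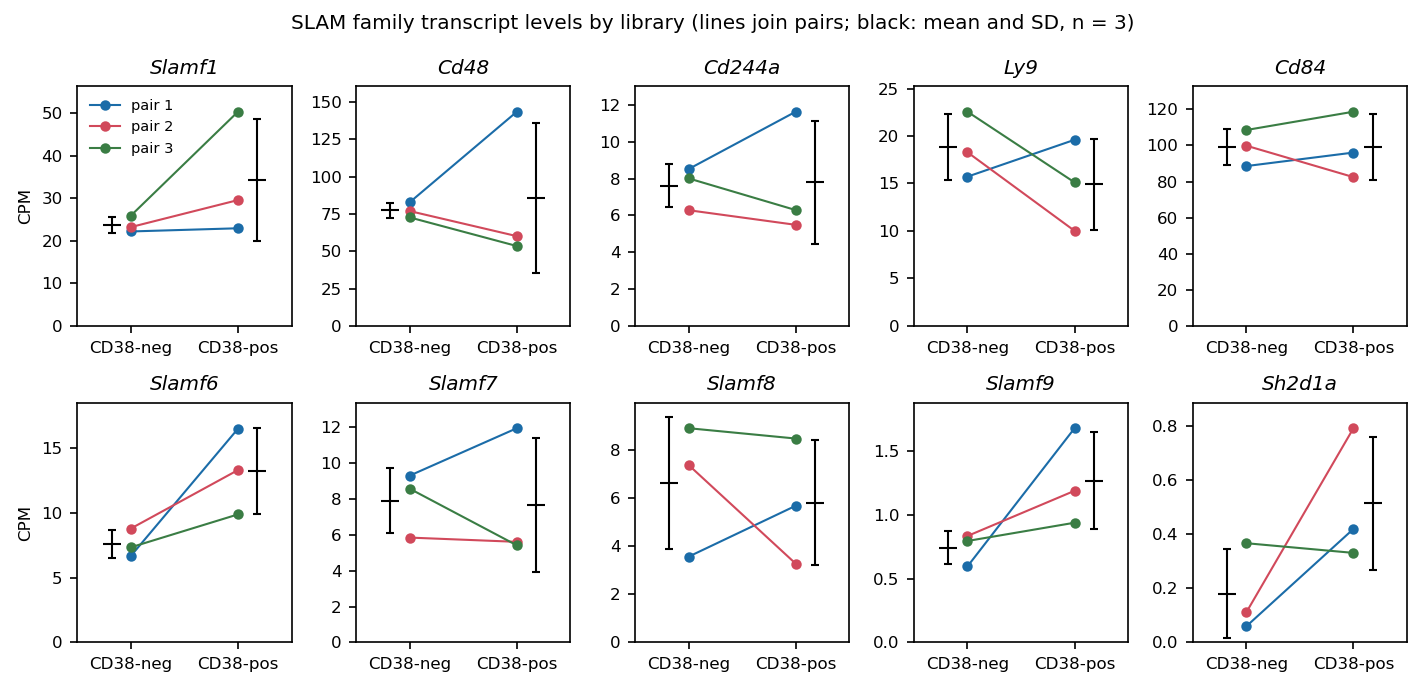
Level of each SLAM family gene in CPM (vertical axes start at 0) in CD38-negative and CD38-positive libraries; coloured lines join the libraries of a pair, and black marks give the mean and SD of 3 libraries. In Slamf6 and Slamf9 all 3 lines run upward without overlap of the groups, and in Cd48, Cd244a, Ly9, Slamf7 and Slamf8 pair 1 runs opposite to pairs 2 and 3.

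The direction of most receptors differed between pairs. In pair 1, 9 of 9 tested receptors were higher in the CD38-positive library (50.3% of all genes were), with a median difference of 0.44. In pair 2, 3 of 9 were higher (48.7% of all genes), with a median of -0.19, and in pair 3, 4 of 9 (52.6% of all genes), with a median of -0.07. Cd48, Cd244a, Ly9, Slamf7 and Slamf8, 5 of the 9, were positive in pair 1 and negative in pairs 2 and 3. The summed granulocyte markers had log2 differences of 0.46, -0.11 and -0.43 in the same pairs, the 15 T and NK cell markers of 0.63, -0.40 and -0.92, and the 10 erythroid markers of 0.27, -0.47 and -0.53. Such sums weigh abundant genes most, S100a8 (mean 42589 CPM) in the granulocyte and Hbb-bs (2375 CPM) in the erythroid list. Single genes did not all have the signs of the sums: in pair 2, S100a8 was at -0.41 and Mpo at 0.28. Of the 14 granulocyte markers 3, and of the 10 erythroid markers 1, were higher in the CD38-positive library of all 3 pairs (13.2% of all genes). The T and NK cell sum was 156 to 355 CPM in CD38-positive and 206 to 308 CPM in CD38-negative libraries and came mostly from Nkg7. Without Nkg7, a choice made after its values were seen, the sum of the other 14 was between 30.9 and 43.6 CPM in all 6 libraries, and its log2 differences of -0.092, -0.17 and 0.27 in pairs 1, 2 and 3 did not have the signs of the full list. T cell genes had few reads in either population. Cd3d had 32, 16 and 9 reads in CD38-positive and 23, 12 and 27 in CD38-negative libraries, Trac had 23, 11 and 0 against 17, 14 and 8, and Cd3e had 4, 3 and 0 against 0 in each. The 14 B and plasma cell markers were lower in the CD38-positive library of each pair, at -0.74, -1.75 and -2.64, with sums of 371 to 1105 CPM against 1245 to 3571 CPM. The part of these cell types in the pair differences of the receptors was not tested.

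**Figure D4:**
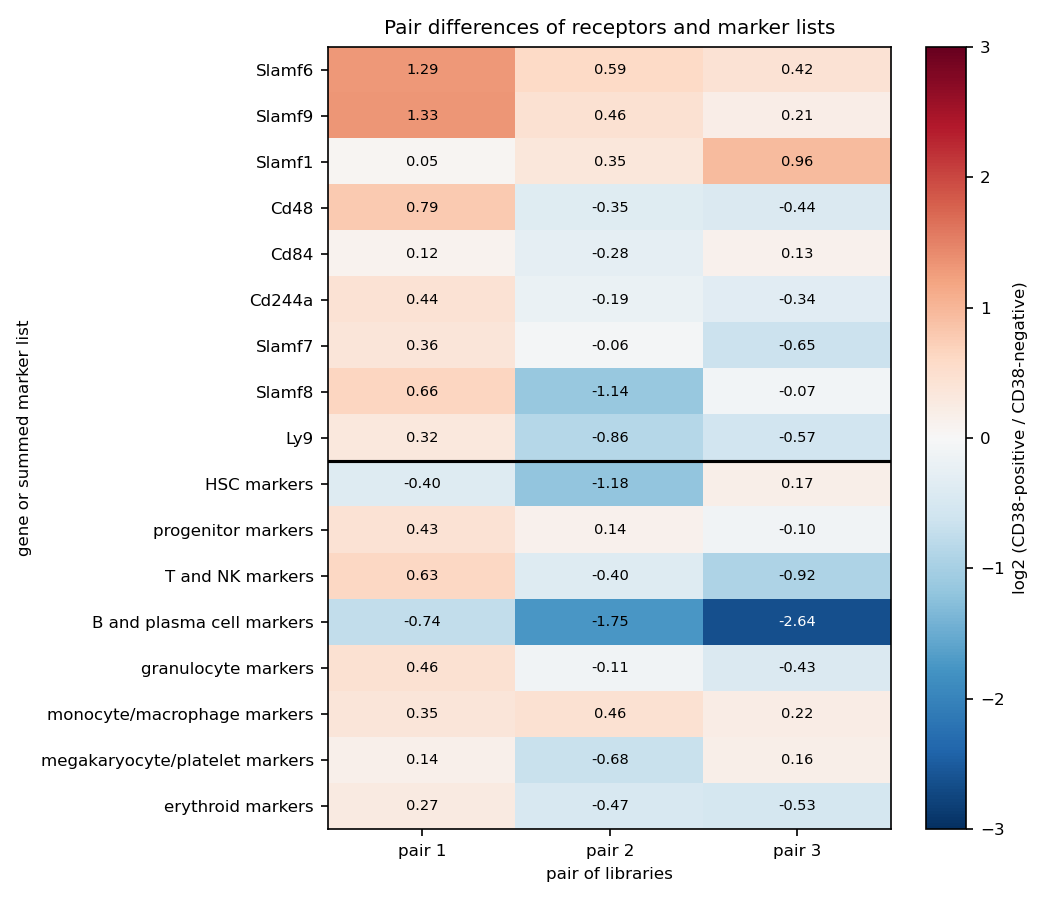
Log2 ratio of the CD38-positive to the CD38-negative library in each of 3 pairs (columns) for the 9 tested receptors, above the line, and for the summed CPM of 8 marker lists, below it; red is higher and blue lower in the CD38-positive library. All 9 receptors are positive in pair 1, while Slamf6, Slamf9 and Slamf1 are positive in every pair.

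The adaptor genes differed in level. Sh2d1a (ENSMUSG00000005696, chromosome X, 42502453 to 42529330, plus strand), which encodes SAP, had 7, 14 and 6 reads in the CD38-positive and 1, 2 and 6 reads in the CD38-negative libraries, 27 against 9 in all, and fell under the filter on low counts. The libraries overlapped at 6 reads, and in the fit without that filter the log2 fold change was 1.61 with an unadjusted edgeR p of 0.124. Sh2d1a shares 1465 exonic bases with Tenm1 on the opposite strand, which had 0 reads. Because the strand setting of the counts is not given, the reads and the level per length of Sh2d1a are less certain. Sh2d1b1, which encodes the adaptor EAT-2, was at 1.46 CPM per kb against 0.0630 for Sh2d1a, with 52 to 80 reads in CD38-positive and 46 to 71 in CD38-negative libraries and an estimate of 0.20 on the log2 scale (SE 0.33, adjusted p = 0.961 in edgeR). Its near relative Sh2d1b2 had 3 reads in CD38-negative library 1 and 0 in the others. Cd2, the other receptor for CD48, had 58, 26 and 10 reads against 27, 28 and 36, with an estimate of -0.22 on the log2 scale (adjusted p = 0.970 in edgeR).

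Genes known to act with SLAM receptors were read from the same fit. Of the 43 tested, 0 passed an adjusted p of 0.05 (0.0135% of all genes did). An unadjusted p under 0.05 was found for 3 of them, against 5.08% of all genes. Of the 17 that act directly at the receptors, 16 were tested, with a median log2 fold change of 0.12. Among them Lyn, a Src-type kinase of myeloid cells, had a log2 fold change of 0.49 (SE 0.24), with an unadjusted edgeR p-value of 0.0579. Lyn was at 168, 215 and 142 CPM in CD38-positive and 152, 89.3 and 134 CPM in CD38-negative libraries, and the difference was largest in pair 2, at 1.27. For Fgr, another kinase of this type, it was 0.27 (adjusted p = 0.930 in edgeR). Ptpn6, which encodes the phosphatase SHP-1, had the highest level per length of the list, 135 CPM per kb, and was at 407 ± 39.3 CPM in CD38-positive and 352 ± 58.4 CPM in CD38-negative libraries (SD, n = 3 each), with a log2 fold change of 0.22. Fyn, the kinase that SAP recruits, was far lower per length than Lyn, at 1.34 against 36.9 CPM per kb.

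The 21 genes further downstream had a median log2 fold change of 0.07, with 11 positive and 10 negative. Over all 14785 tested genes, 7404 were positive and 7381 negative. Lat, an adaptor of T cells and platelets, was at 22.1, 19.5 and 24.9 CPM in CD38-positive and 25.0, 34.5 and 35.0 CPM in CD38-negative libraries, and every CD38-positive library was below every CD38-negative one. Its log2 fold change was -0.50 (SE 0.22), with an unadjusted edgeR p of 0.0423 and an adjusted p of 0.926. Plcg1, a phospholipase that Lat recruits, had -0.45, and Vav1, an exchange factor for small GTPases, had 0.37 (edgeR adjusted p = 0.926 for both).

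Subunits of the phagocyte NADPH oxidase, which SLAMF1 and SLAMF8 are known to affect, were also read from the fit. Positive log2 fold changes were found for 5 of 6 (7404 of all 14785 tested genes), with a median of 0.18. Ncf1, the p47 subunit, had 0.67 (SE 0.23), with pair differences of 0.22, 1.35 and 0.46, an unadjusted edgeR p of 0.0118 and an adjusted p of 0.925. It was at 610, 493 and 327 CPM in CD38-positive and 524, 193 and 238 CPM in CD38-negative libraries, and the groups overlapped. Cybb, the membrane subunit, had 0.26 (edgeR adjusted p = 0.932). These are genes of granulocytes and monocytes, and the marker sums of those cells are given above; their part in these values was not tested.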

How the data were processed

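The authors deposited raw read counts per Ensembl gene, one table per library. The submitters' processing notes name cutadapt, STAR and HTSeq 0.6.1p1 and the build GRCm38; the annotation release and the strand setting are not given in the sources used here. Coordinates and exon lengths came from GENCODE M21 on GRCm38, and symbols matched 49326 of 49585 rows. Genes were kept with filterByExpr (14785), scaled by TMM, and tested in R 4.3.3 with edgeR 4.0.16 (quasi-likelihood, pair plus population, Benjamini-Hochberg over all tested genes). Standard errors come from the quasi-F statistic, and CPM per kb uses merged exons. Pair differences use log2 CPM (prior count 2). The pairs come from the series' design text, and as a check the residuals about the group means correlated within pairs 1, 2 and 3 (0.34, 0.12 and 0.24). Replicates differed by more than counting noise (chi-square divided by its degrees of freedom, 51.4 to 116). The procedure was tested on simulated data. Members and lists were chosen with earlier results of these data known. Named were all members, Sh2d1b1, Sh2d1b2, Cd2, the 3 pathway genes per list with the smallest p, the highest and lowest first-list genes, and the 3 genes most like Slamf1; Fyn was named after its values were seen, and some genes of this rule are not reported here. Alternatives were no block, DESeq2 1.42.0, limma-voom (3.58.1), other scalings and filters, leaving out each pair and, chosen after seeing the data, the longest transcript as the length.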

Additional observations from a re-analysis of the deposited data

How the results depend on the processing

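The count of 0 receptors and 0 other SLAM pathway genes past the threshold held under all 10 other settings, in which 1 or 2 receptors had an unadjusted p under 0.05. Over all genes the count was 2 with the replicate block and 0 without the replicate block (where 417 had an unadjusted p under 0.05); it was 11 with DESeq2, 7 with DESeq2 size factors, 0 with unscaled library totals (where 595 did), 80 with no filter, 13 with a mean of at least 10 counts, and 2, 41 and 12 without pair 1, 2 and 3; the cause was not tested. Of 90 alternative values of the 9 receptors, 78 kept sign and side of the threshold and 12 changed sign. Without the replicate block these were Cd48 (0.15), Cd244a (0.037) and Cd84 (0.0011). Cd48 also changed to 0.013 with limma-voom and 0.00063 with no filter. Leaving out a pair gave ranges of -0.40 to 0.22 for Cd48, -0.27 to 0.13 for Cd244a, -0.081 to 0.11 for Cd84, -0.36 to 0.16 for Slamf7, -0.60 to 0.27 for Slamf8, -0.72 to -0.14 for Ly9, 0.20 to 0.65 for Slamf1, 0.51 to 0.95 for Slamf6 and 0.38 to 0.98 for Slamf9. The adjusted p of Slamf6 ran from 0.401 to 0.994. With the longest transcript as the length the mean ratio of Cd48 to Slamf1 per kb was 11.9 instead of 16.6. At this depth Sh2d1a, with 1 to 14 reads per library, was close to the limit of 3 reads, and counting error covers only part of the spread since reads are not independent molecules.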
